A study of Mus musculus with 6 samples.

Results

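The interleukin 1 family was followed through whole-liver RNA sequencing of 6 mice with thioacetamide (TAA) fibrosis. Members were taken by gene symbol, and all 9 (Il1a, Il1b, Il1rn, Il1r1, Il1r2, Il1rap, Il18, Il33 and Il1rl1) were found among the 21983 genes of the count table. All 6 mice were C57BL/6, carried floxed alleles of the arginine methyltransferase gene Prmt1 (Prmt1f/f), and drank TAA, a hepatotoxin, at 400 mg/L for 16 weeks. In 3 of them, numbers 49, 82 and 88, the Lrat-Cre transgene was added (Lrat-Cre; Prmt1f/f, called knockout here). The other 3, numbers 42, 83 and 90, had the floxed alleles alone (Prmt1f/f, called control here). Lrat marks hepatic stellate cells within the liver, so the deletion was directed at one minor cell type while RNA came from all cells. No liver was free of TAA. The labels give 10 weeks as the age, without saying how this relates to the 16 weeks of TAA, and give no sex.

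Interleukin 1 alpha and beta bind the receptor encoded by Il1r1, which then recruits the accessory protein encoded by Il1rap and signals through MyD88 to NF-kB. This pathway is held back at several points. Il1rn encodes an antagonist that occupies the receptor without recruiting the accessory protein, and Il1r2 encodes a decoy receptor that binds ligand but has no signalling domain. Interleukin 33 uses the receptor of Il1rl1 (ST2) with the same accessory protein, whereas interleukin 18 has its own receptor chains, Il18r1 and Il18rap, and a soluble inhibitor, Il18bp. In injured liver, macrophages and neutrophils are known sources of interleukin 1, and hepatocytes and stellate cells respond to it. Interleukins 1 beta and 18 are made as inactive precursors, so messenger RNA does not measure active cytokine.

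Total counts ranged from 13303884 to 16462278 per liver, and 13153 genes passed the filter on low counts. The targeted gene Prmt1 had 44.4 ± 5.44 CPM (read counts scaled to a common library size, SD, n = 3) in controls and 28.8 ± 6.11 CPM (SD, n = 3) in knockouts, with no overlap between groups. Its log2 fold change was -0.62 (adjusted p = 0.347, quasi-likelihood test of edgeR over all genes). Markers of hepatocytes, the main cells of the labelled tissue, summed to between 73540 and 108400 CPM in each liver. Summed neutrophil and lymphocyte markers were spread widely among controls, lowest in liver 42 and highest in liver 90. In neutrophil markers, for instance, the summed level was 19.0 CPM in liver 42 and 99.8 CPM in liver 90. Monocyte and macrophage markers were lowest in liver 42 but highest in liver 83, and Kupffer cell markers were lowest in liver 83.

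In outline, the signalling receptor Il1r1 and its partner Il1rap were higher on average in knockout livers, while both natural brakes, Il1rn and Il1r2, were lower. Agonists differed less: Il1a was somewhat lower, and Il1b, Il18 and Il33 overlapped between genotypes. At an adjusted p of 0.05, edgeR called 0 of the 8 members tested, against 0% of all 13153 genes. DESeq2 called 2 members, Il1r1 higher (adjusted p = 0.0437) and Il1rn lower (adjusted p = 0.0428), where it called 1.81% of all genes in either direction, 0.875% higher and 0.936% lower. limma-voom called 0 of the members and 0% of all genes. With library weights, limma-voom called 1 member, Il1r1 higher (adjusted p = 0.0282), against 2.30% of all genes higher and 1.96% lower. Il1r2 could be tested only because all 3 controls passed the low-count filter, which no knockout did, so it is kept out of the counts that follow. By unadjusted p under 0.05 in edgeR, 1 member (Il1rn) was lower and 1 (Il1r1) was higher, against 5.95% and 5.06% of all genes. Both stayed under 0.05 whichever liver was left out, and without control liver 83 Il33 was under it and Il1r2 was not. The same count over all genes was 1448 with all livers, 2519 without control liver 42, 865 without control liver 83, and 775 without knockout liver 82. Groups did not overlap in 2 members that were lower (Il1a and Il1rn) and 2 that were higher (Il1r1, Il1rap), against 7.95% and 8.94% of all genes. The median log2 fold change of the 8 tested members, Il1r2 included, was -0.05, beside -0.02 over all genes tested, and 4 of the 8 were negative, as were 52.7% of all genes.

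**Figure D1:**
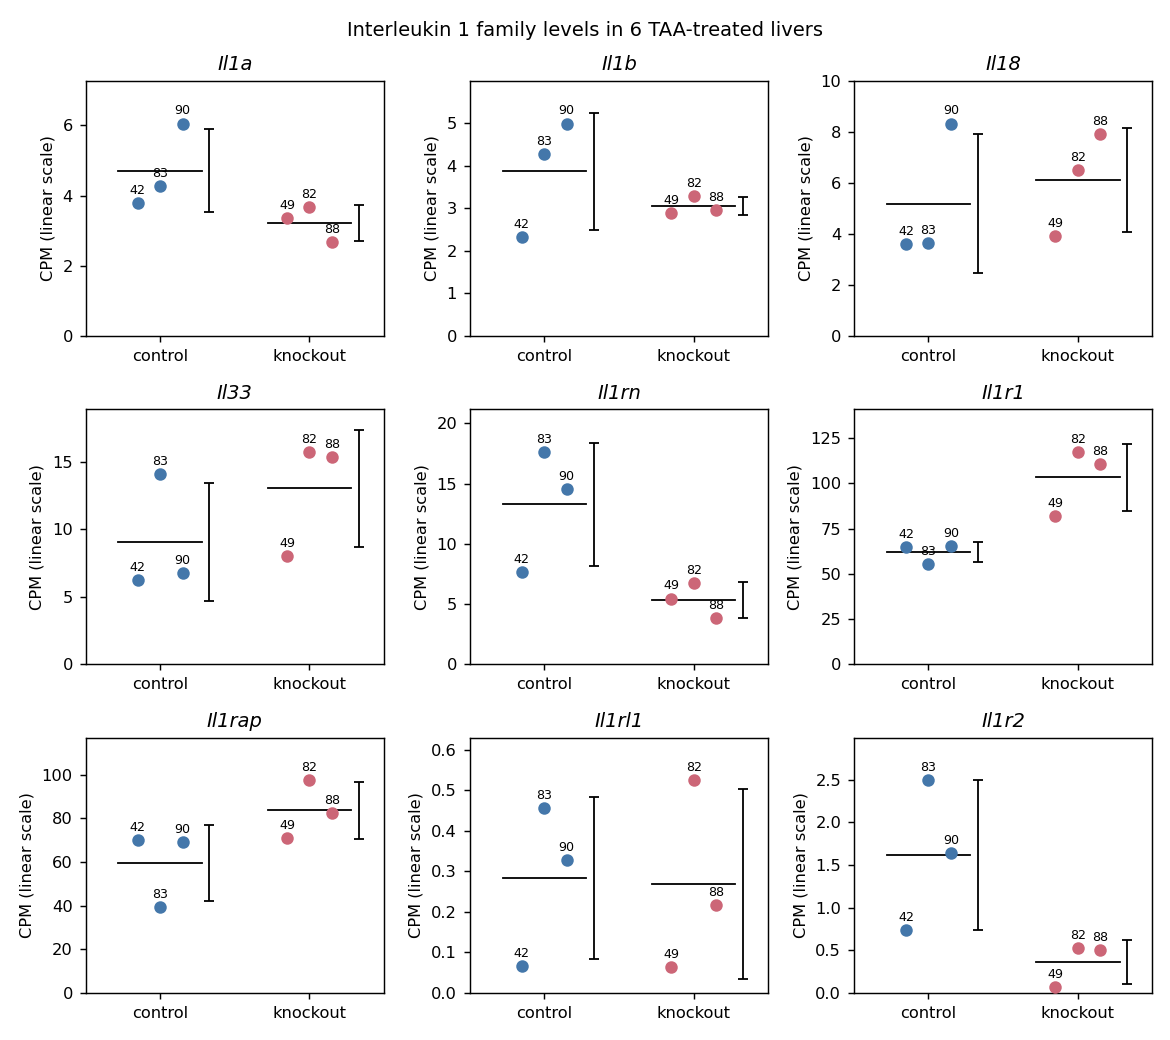
CPM of each member (linear vertical axes that start at 0) in the 3 control livers (blue) and 3 knockout livers (red), each point marked with its mouse number. Horizontal lines are group means and bars beside them are SDs; the groups separate in Il1a, Il1rn, Il1r1, Il1rap and Il1r2.

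Per kilobase of annotated exon, members spanned more than 2 orders of magnitude in level. Il1r1 was the most abundant in both genotypes, at 9.75 ± 0.881 CPM per kb in controls and 16.2 ± 2.94 CPM per kb in knockouts (SD, n = 3 each). In every liver it lay above the level of any other member. Il1rap came next, at 5.23 ± 1.54 CPM per kb in controls and 7.36 ± 1.16 in knockouts. It could not be separated from Il18 (5.04 ± 2.64 and 5.94 ± 1.97 CPM per kb), nor Il18 from Il33 (3.13 ± 1.51 and 4.52 ± 1.5), because their ranges overlapped within each genotype. In controls Il1rn (2.40 ± 0.922), Il1a (2.38 ± 0.602) and Il1b (2.03 ± 0.720 CPM per kb) followed with overlapping ranges. In knockouts Il1a (1.64 ± 0.260) and Il1b (1.60 ± 0.113) overlapped each other and lay under Il33, while Il1rn (0.966 ± 0.265 CPM per kb) stood under both agonists. Il1r2 stood at 0.849 ± 0.460 CPM per kb in controls, where its range just met that of Il1b, and at 0.191 ± 0.136 in knockouts. Il1rl1 was lowest, at 0.0412 ± 0.0289 and 0.0389 ± 0.0340 CPM per kb, and its range met that of Il1r2 in knockouts only. Lengths are unions of annotated exons, so a gene whose liver transcripts are shorter than that union is placed too low.

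**Figure D2:**
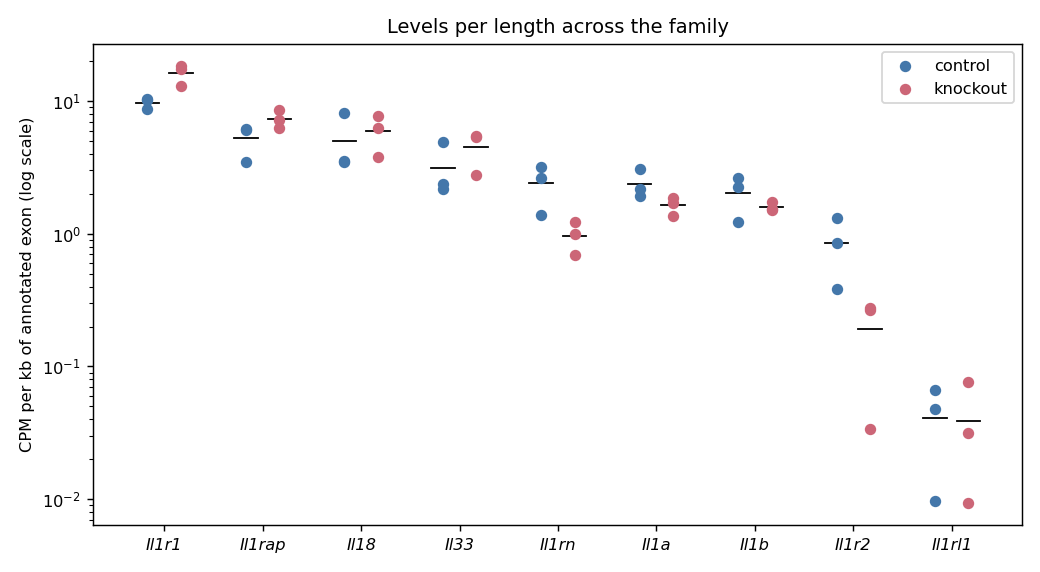
Level of each member in CPM per kb of annotated exon (log axis), ordered by control mean, for control (blue) and knockout (red) livers with lines at group means. Il1r1 is highest in both genotypes, Il1rn lies among Il1a and Il1b in controls and under them in knockouts, and Il1rl1 is lowest.

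Among the agonists, Il1a and Il1b were low and close to each other. Il1a (chromosome 2, 129299610 to 129309972, minus strand, GENCODE M21 on GRCm38) encodes interleukin 1 alpha, which is active without processing. Its levels were 3.80, 4.27 and 6.05 CPM in control livers 42, 83 and 90, and 3.35, 3.67 and 2.67 CPM in knockout livers 49, 82 and 88. Every knockout lay under every control, with knockout liver 82 close to control liver 42. The log2 fold change was -0.54 (SE 0.31, adjusted p = 0.544, edgeR). With 215 counts in controls and 138 in knockouts, counting error alone leaves a knockout-to-control ratio between 0.565 and 0.876.

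Il1b, the inflammasome-dependent agonist, lies on the same chromosome (129364570 to 129371139, minus strand). It had 2.33, 4.27 and 4.99 CPM in control livers 42, 83 and 90, and 2.90, 3.30 and 2.95 CPM in knockout livers 49, 82 and 88. All knockouts fell inside the control range, control liver 42 being the lowest of the 6. Knockouts were also the more uniform group, with an SD of 0.216 against 1.37 CPM. The log2 fold change of -0.34 had a 95% interval from -1.15 to 0.47 (adjusted p = 0.727, edgeR), so neither a 2-fold decrease nor a small increase was outside it. It was -0.60 without control liver 42 and -0.17 without control liver 90.

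Il18 (chromosome 9, 50554827 to 50581840, plus strand) encodes the cytokine best known for driving interferon gamma in lymphocytes. It had 3.60, 3.66 and 8.34 CPM in control livers 42, 83 and 90, and 3.93, 6.52 and 7.93 CPM in knockout livers 49, 82 and 88. Each genotype held both low and high livers, and the log2 fold change was 0.24 (SE 0.42, adjusted p = 0.837, edgeR). It went from 0.71 without control liver 90 to -0.0052 without knockout liver 88, and was 0.04 without control liver 42 or 83, and 0.49 without knockout liver 49.

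Il33 (chromosome 19, 29925114 to 29960718, plus strand) encodes a nuclear alarmin released from damaged stromal and barrier cells. It was at 6.27, 14.1 and 6.79 CPM in control livers 42, 83 and 90, and at 8.05, 15.7 and 15.3 CPM in knockout livers 49, 82 and 88. Control liver 83 sat with the high knockouts and knockout liver 49 with the low controls. The log2 fold change of 0.52 (SE 0.38, adjusted p = 0.623, edgeR) became 0.996 without control liver 83 and 0.77 without knockout liver 49. It was 0.30 without control liver 90, 0.31 without control liver 42, 0.33 without knockout liver 82 and 0.34 without knockout liver 88. Whole-liver RNA cannot tell fewer cells of one type from less RNA per cell, here or in the members that follow.

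Of the brakes, the antagonist gene Il1rn (chromosome 2, 24336853 to 24351494, plus strand) had the more counts. It was at 7.67, 17.6 and 14.6 CPM in control livers 42, 83 and 90, against 5.47, 6.74 and 3.82 CPM in knockout livers 49, 82 and 88. All knockouts were under all controls, with control liver 42 near the knockout range. Knockout over control gave a log2 fold change of -1.31 (SE 0.35), its 95% interval reaching from -2.12 to -0.51, and leaving out a liver moved it between -1.59 and -1.05. Its adjusted p was 0.313 in edgeR, 0.0428 in DESeq2 and 0.344 in limma-voom. Counts are per gene, so secreted and intracellular forms of the antagonist are summed.

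The decoy receptor gene Il1r2 (chromosome 1, 40074079 to 40125231, plus strand) had few counts. There were 11, 49 and 20 counts in control livers 42, 83 and 90, and 1, 7 and 7 in knockout livers 49, 82 and 88. In CPM these were 0.733, 2.49 and 1.64, against 0.0644, 0.525 and 0.504, with no overlap between genotypes. The 80 counts of controls and 15 of knockouts give a control-to-knockout ratio of 4.86, with a counting interval (95%, exact binomial) from 2.78 to 9.09 that leaves out the spread between mice. The fitted log2 fold change was -2.17 (SE 0.72, adjusted p = 0.353, edgeR). Without knockout liver 49 it was -1.65, and without control liver 83 it was -1.69. The gene passed the low-count filter through the 3 controls, no knockout reaching the 0.68 CPM required, so its place among tested genes already rests on the control level.

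Ratios taken within each liver do not depend on scaling between libraries. Counts of Il1rn per count of Il1b were 3.29, 4.13 and 2.92 in control livers 42, 83 and 90, and 1.89, 2.05 and 1.29 in knockout livers 49, 82 and 88. On the log2 scale the ratio averaged 1.77 ± 0.255 in controls and 0.773 ± 0.354 in knockouts (SD, n = 3), a difference of -0.996. Antagonist and agonist thus differed unequally between genotypes, and the groups did not meet in this ratio although they did in Il1b itself. For Il1r2 against Il1r1, the log2 ratio was -6.47, -4.48 and -5.32 in control livers 42, 83 and 90, and -10.3, -7.81 and -7.78 in knockout livers 49, 82 and 88. The value of liver 49 comes from a single Il1r2 count, and those of livers 82 and 88 from 7 counts each. No knockout reached the low-count filter in Il1r2. The means differed by -3.21, and by -2.37 when liver 49 was left out. No test is given for either ratio, because members were chosen with results known.

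Il1r1, the signalling receptor gene, lies on chromosome 1 (40225080 to 40317257, plus strand), beside that of its decoy. Levels were 65.1, 55.5 and 65.4 CPM in control livers 42, 83 and 90, and 82.1, 117.4 and 110.5 CPM in knockout livers 49, 82 and 88. The lowest knockout, liver 49, was above the highest control. Knockout over control gave a log2 fold change of 0.74 (SE 0.19), its 95% interval reaching from 0.30 to 1.17, with a mean of 62.0 ± 5.61 against 103 ± 18.7 CPM (SD, n = 3). It stayed between 0.62 and 0.88 with any 1 liver left out. Its adjusted p was 0.305 in edgeR, 0.0437 in DESeq2 and 0.324 in limma-voom.

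Il1rap, the accessory chain shared by the interleukin 1 and interleukin 33 receptors, lies on chromosome 16 (26581704 to 26730117, plus strand). Its levels were 70.0, 39.2 and 69.1 CPM in control livers 42, 83 and 90, and 71.1, 97.3 and 82.4 CPM in knockout livers 49, 82 and 88. The groups just failed to meet, knockout liver 49 lying within about 1 CPM of control liver 42. The log2 fold change of 0.49 (SE 0.25, adjusted p = 0.488, edgeR) was 0.26 without control liver 83. Membrane and soluble forms of the protein come from the same gene and were counted together.

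Il1rl1, the interleukin 33 receptor gene (chromosome 1, 40429570 to 40465415, plus strand), was close to the detection limit and was not tested. It had 1, 9 and 4 counts in control livers 42, 83 and 90, and 1, 7 and 3 in knockout livers 49, 82 and 88. The knockout-to-control ratio of the 14 and 11 pooled counts was 0.862, with a counting interval from 0.354 to 2.04. A difference within that interval was not detectable at this depth, and the interval leaves out the spread between mice.

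**Figure D3:**
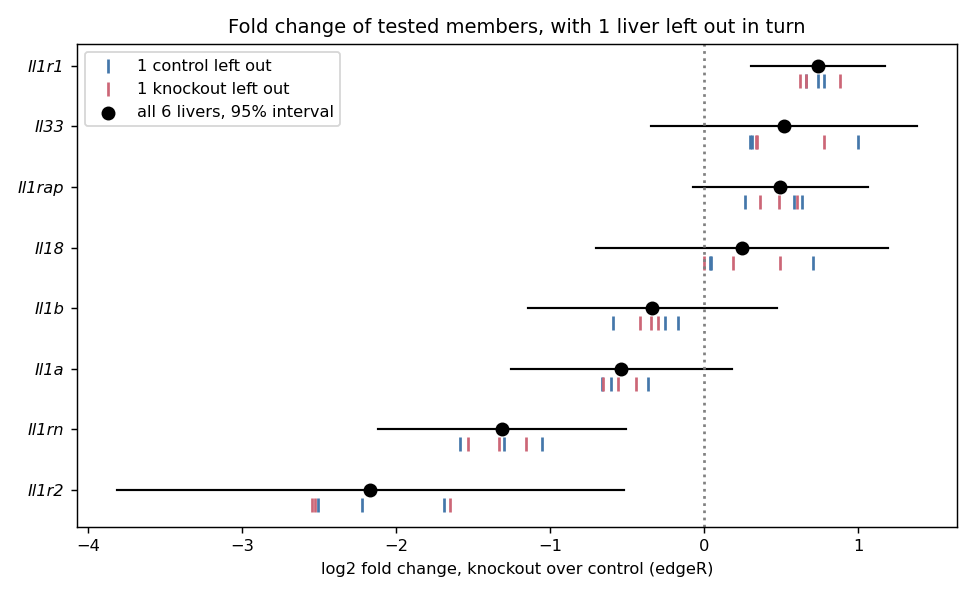
Log2 fold change of knockout over control for the 8 tested members (black points, all 6 livers) with 95% intervals as lines, and ticks for fits without 1 control (blue) or 1 knockout (red). Il1r1, Il1rn and Il1r2 have intervals that do not include 0, and the ticks of these 3 stay on the side of their point. Il1r2 was tested only because all 3 controls passed the low-count filter, which no knockout did.

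Il1r2 and Il1r1 are the first of 6 receptor genes that stand in a row on the plus strand of chromosome 1, and their fold changes had opposite signs. From Il1r2 the order is Il1r1, Il1rl2 (the interleukin 36 receptor), Il1rl1, Il18r1 and Il18rap. Their log2 fold changes were -2.17 for Il1r2, 0.74 for Il1r1, -0.24 for Il1rl2, -1.45 for Il18r1 and -0.52 for Il18rap. Il1rl2 turned positive without control liver 83 (0.18) or knockout liver 49 (0.16), and was -0.45 without control liver 90, -0.42 without control liver 42 and -0.73 without knockout liver 88. Il18rap was -0.95 without control liver 42, -0.23 without control liver 83 and -0.29 without control liver 90. Groups overlapped in each of Il1rl2, Il1rl1, Il18r1 and Il18rap. Il18r1 had 0.400, 1.93 and 2.13 CPM in control livers 42, 83 and 90, and 0.451, 0.225 and 0.937 CPM in knockout livers 49, 82 and 88. Control liver 42 was low among controls in Il18r1, Il18rap and Il1r2 alike, but not in Il1r1. Il1r2 and Il1r1 each overlap noncoding genes of GENCODE M21 that the count table does not list (an antisense gene, Gm16894, in the case of Il1r2), and the strand setting of the counting is not given.

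**Figure D4:**
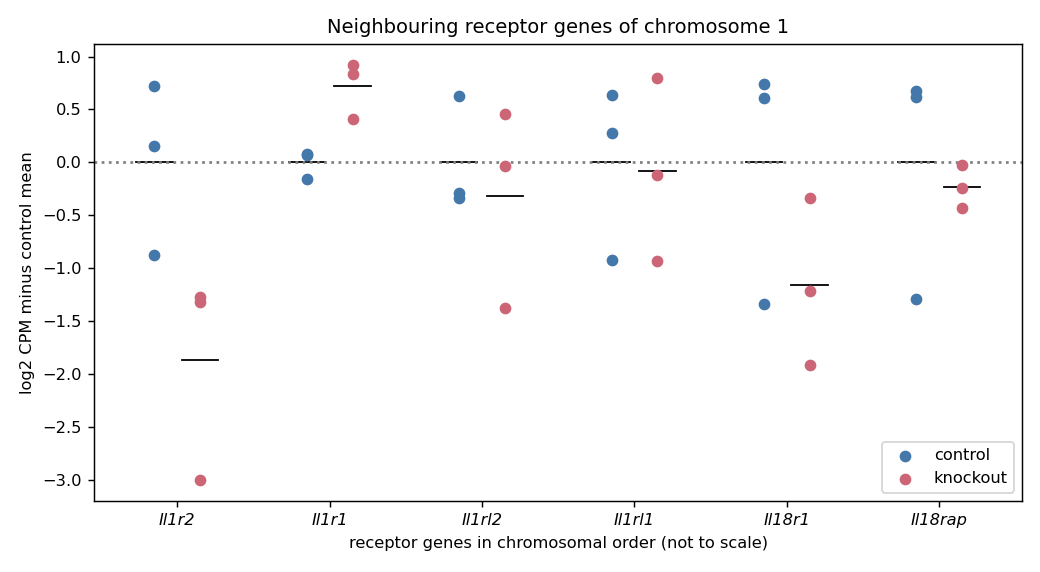
Log2 CPM minus the control mean for the 6 receptor genes of chromosome 1 in their order along it (spacing not to scale), for control (blue) and knockout (red) livers, lines at group means. Knockouts lie under controls in Il1r2 and over them in Il1r1, and groups overlap in the other 4 genes.

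The start regions of the neighbours Il1r2 and Il1r1, and of Il1rn, are shown because these 3 members had the smallest p. The p of Il1r2 comes from a gene tested only because the controls passed the low-count filter, so this choice is not a result. Sequences are from RefSeq (GRCm38.p6), plus strand, 250 bases before to 50 after a start site, with motif matches in capitals.
Il1r2, chr1:40085843-40086142: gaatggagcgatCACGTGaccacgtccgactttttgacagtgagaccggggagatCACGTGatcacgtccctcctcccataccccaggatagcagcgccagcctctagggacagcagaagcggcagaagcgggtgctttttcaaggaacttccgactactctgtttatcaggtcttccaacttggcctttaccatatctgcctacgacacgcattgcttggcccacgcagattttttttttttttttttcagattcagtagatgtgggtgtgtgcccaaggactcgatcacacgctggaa
Il1r1 upstream start, chr1:40224830-40225129: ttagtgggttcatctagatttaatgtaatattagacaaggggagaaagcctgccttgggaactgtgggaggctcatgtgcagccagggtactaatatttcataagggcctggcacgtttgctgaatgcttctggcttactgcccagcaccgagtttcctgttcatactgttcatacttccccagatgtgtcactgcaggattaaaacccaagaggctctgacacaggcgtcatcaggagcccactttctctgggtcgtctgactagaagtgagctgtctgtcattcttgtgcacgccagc
Il1r1 downstream start, chr1:40266336-40266635: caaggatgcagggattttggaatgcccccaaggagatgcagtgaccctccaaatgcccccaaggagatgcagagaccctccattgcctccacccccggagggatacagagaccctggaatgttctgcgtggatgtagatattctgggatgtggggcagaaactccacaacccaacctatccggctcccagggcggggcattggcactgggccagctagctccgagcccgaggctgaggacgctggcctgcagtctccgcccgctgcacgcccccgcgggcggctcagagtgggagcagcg
Il1rn upstream start, chr2:24336610-24336909: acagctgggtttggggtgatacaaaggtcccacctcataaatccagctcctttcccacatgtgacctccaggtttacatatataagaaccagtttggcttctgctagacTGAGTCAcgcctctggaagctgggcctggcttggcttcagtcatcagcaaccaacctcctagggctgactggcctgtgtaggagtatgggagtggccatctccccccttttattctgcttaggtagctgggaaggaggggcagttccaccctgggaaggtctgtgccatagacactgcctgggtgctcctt
Both strands were searched for 5 motifs, and no matches overlapped in the windows shown. They were an NF-kB site (GGGA, any 2 bases, TTCC), the AP-1 site TGANTCA and the E-box, which reads CACGTG. The others were the core of PU.1 type ETS sites, written GAGGAA, and the TATA box, searched for as the letters TATAAA. The capitals in Il1r2 are a pair of E-boxes, and those in the upstream window of Il1rn are an AP-1 match. Further start windows of Il1rn, at chr2:24345041-24345340 and chr2:24345121-24345420, are not shown. Neither held an AP-1 match, and the latter held a TATA box match. At least 1 E-box was found in 7.15% of all 32851 RefSeq windows of this length (the share with a pair was not counted), and at least 1 AP-1 match in 7.81%. Both Il1r1 windows held none of the 5 motifs, and they differed in base composition, at 49.3% and 63.3% G or C. Across the 14 windows of all 9 members, the NF-kB letters occurred in none, against 1.47% of all windows. The window of Il1a held an AP-1, an ETS and a TATA box match, and that of Il1b a TATA box match. The ETS letters occurred in 28.3% of all windows and the TATA box letters in 13.6%.

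Immune cell markers are given beside Il1rn and Il1r2. edgeR called 0 genes in every marker list at an adjusted p of 0.05. DESeq2 called 7 stellate, 2 neutrophil and 1 lymphocyte markers lower, against 0.936% of all genes. It called 1 hepatocyte marker higher, against 0.875% of all genes, and 0 in the other marker lists. Of 12 neutrophil markers 5 were tested, all with negative fold changes (median -1.64, and -2.64 without control liver 42). Of these, 4 were lower at an unadjusted p under 0.05 in edgeR, against 5.95% of all genes. Their sum over all 12 was 19.0 to 99.8 CPM in controls and 12.04 to 18.6 CPM in knockouts, and Trem1 was at 0 in all livers. Csf3r, the G-CSF receptor, was at -1.01 and S100a9, a calprotectin subunit, at -2.17 on the log2 scale (-1.39 without control liver 90). Monocyte and recruited macrophage markers, 11 of 12 tested with 10 negative, had a median of -0.96 (-0.64 without knockout liver 49). They summed to 698 to 1896 CPM in controls and 424 to 1057 CPM in knockouts, and Trem2 was listed at 0 in every liver. Kupffer cell markers were all positive (7 of 7, median 0.37, 1.13 without control liver 90 and 0.56 without knockout liver 88), at 279 to 502 CPM in controls and 360 to 535 CPM in knockouts. Monocyte and Kupffer sums thus overlapped between genotypes. The 2 genes of smallest p were the scavenger receptor genes Cd163 (2.01, 3.08 without control liver 42 and 1.28 without knockout liver 82) and Marco (1.47) for Kupffer cells, and Itgax (-0.96) and Cd68 (-0.75) for monocytes and macrophages. The part of these cell markers in Il1rn and Il1r2 was not tested.

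For Il1r1 and Il1rap, hepatocyte and stellate markers are given beside the result. Hepatocyte markers had a median log2 fold change of 0.30 (7 of 9 positive; 0.12 without control liver 83, 0.16 without knockout liver 82, 0.47 without knockout liver 49). The urea cycle gene Cps1 was at 1.04 and the nuclear receptor gene Hnf4a at 0.65. Stellate cell markers had a median of -0.88, with 12 of 13 negative, against 52.7% of all genes. Of the 13, 8 were lower at an unadjusted p under 0.05 in edgeR, against 5.95% of all genes. Stellate markers summed to 1005 to 1281 CPM in controls against 407 to 721 CPM in knockouts. Medians of the remaining marker lists were -0.16 for sinusoidal endothelium, -0.76 for bile duct, -0.49 for mesothelium and -1.44 for T, B and NK cells. Each moved when single livers were left out. The endothelial median was -0.04 without control liver 90, -0.38 without knockout liver 82 and 0.0032 without knockout liver 88. For bile duct it was -0.36 without control liver 83, -0.44 without knockout liver 49 and -1.17 without knockout liver 88. For mesothelium it was -0.88, -0.27 and -0.76 without control liver 42, 83 or 90, and -0.13 and -0.92 without knockout liver 49 or 88. For lymphocytes it was -1.80 without control liver 42 and -0.85 without control liver 90, the ends of its range. The genes of smallest p in these lists, with their log2 fold changes, were Tagln (-1.04) and Vipr1 (-0.83) for stellate cells and Lyve1 (-0.92, and -0.40 without control liver 90) and Stab1 (-0.25, -0.11 without control liver 83 and -0.38 without knockout liver 82) for endothelium. For bile duct they were Onecut1 (1.07, and 0.62 without knockout liver 49) and Cldn4 (-1.60, and -0.86 without control liver 83). Of the 8 bile duct markers 7 were negative, Onecut1 being the exception. For mesothelium they were Gpm6a (-0.66, -0.34 without control liver 83 and -0.33 without knockout liver 49) and Msln (-1.25). Msln was -0.74 without control liver 83, and -0.69, -0.75 and -4.77 without knockout liver 49, 82 or 88. For lymphocytes Cd79a (-1.41), a B cell receptor component gene, was among them. The part of these markers in the receptor levels was not tested either.

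Groups overlapped in each of the other family members that could be tested. Of 16 symbols, 12 were in the table and 5 were tested, with 4 negative fold changes, a median of -0.52 (-0.95 without control liver 42, -0.23 without 83, -0.29 without 90) and 0 called by edgeR (0 at an unadjusted p under 0.05) or by DESeq2. Il18bp, which neutralizes interleukin 18, had 9.27, 17.1 and 48.4 CPM in control livers 42, 83 and 90, and 12.6, 17.01 and 14.8 CPM in knockout livers 49, 82 and 88. Its log2 fold change of -0.75 rested on liver 90 and was 0.11 without it, and -1.14 without control liver 42. Some of its counts may belong to Numa1, whose exons overlap it on the opposite strand. Sigirr, an inhibitory receptor of the family, was at 20.96 CPM in controls and 23.5 CPM in knockouts (log2 fold change 0.16, 0.05 without control liver 42, 0.25 without control liver 90 and 0.10 without knockout liver 88). Il1rapl1, Il1rapl2, Il1f10, Il1f5 and Il1f8 had no count in any liver.

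Genes of the inflammasome and of ligand processing were tested in 13 of 18 cases, 11 of them with negative fold changes and a median of -0.51. That median was -0.24 without control liver 90, -0.29 without knockout liver 49 and -0.87 without control liver 42. Casp1, which cuts the precursors of interleukins 1 beta and 18, was at -1.06 (SE 0.58) and its adaptor Pycard at -1.16 (SE 0.56), both chosen after their values were seen. Without control liver 90 they were at -0.14 and -0.50. Casp4, the intracellular lipopolysaccharide sensor of mice (caspase 11), had 9.40 ± 6.37 CPM in controls and 2.78 ± 1.04 CPM in knockouts (log2 fold change -1.76, adjusted p = 0.369, edgeR). Nlrp6, an inflammasome sensor gene, went the other way, with 68.9 ± 7.05 against 127.9 ± 35.6 CPM (log2 fold change 0.89, adjusted p = 0.311 in edgeR and 0.0444 in DESeq2). All knockouts lay above all controls in Nlrp6, at 86.8, 149.7 and 147.2 CPM in livers 49, 82 and 88. Groups did not overlap in 2 genes of this list that were higher, against 8.94% of all genes, and in 0 that were lower, against 7.95%. Beside Nlrp6 this was Nek7, chosen after its values were seen. Its log2 fold change was 0.35 (SE 0.19), and 0.20 without control liver 90. DESeq2 called Nlrp6 alone in this list, where it called 0.875% of all genes higher. edgeR called 0 of the list. At an unadjusted p under 0.05 in edgeR, 1 was lower and 1 higher, against 5.95% and 5.06% of all genes.

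Genes of the MyD88 signalling chain went both ways. All 21 genes were tested, 9 were negative, and the median was 0.05, with fold changes between -0.99 and 0.47. Groups did not overlap in 5 genes that were higher, against 8.94% of all genes, and in 3 that were lower, against 7.95%. The former were Mapk14, Chuk, Ikbkb, Map3k7 and Tab2, all kinases or kinase adaptors, and the latter Relb, Nfkb2 and Nfkb1; those outside the naming rule were chosen after their values were seen. Scaling by total counts alone gave a median of -0.10, and leaving out single livers gave -0.03 (without control liver 90) to 0.10 (without knockout liver 82), with 0.09 without control liver 83. Relb (-0.99, SE 0.31) and Nfkb2 (-0.53, SE 0.22, and -0.30 without control liver 83), which form the noncanonical NF-kB dimer, were lower in each knockout than in each control. Ikbkb, the kinase of the canonical branch, was higher in each (0.37, SE 0.15). Adjusted p was 0.336, 0.43 and 0.438 for these genes in edgeR, and DESeq2 called 0 of the list. Groups overlapped in the shared adaptor gene Myd88.

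Among interleukin 1 and NF-kB response genes, the chemokines Ccl2, Cxcl1 and Cxcl5 separated the genotypes. Of 26 genes 20 were tested, 15 were negative, and the median was -0.26 (-0.04 without control liver 90, -0.11 without knockout liver 49, -0.45 without control liver 42, -0.41 without knockout liver 82, -0.40 without knockout liver 88). Groups did not overlap in 4 of the 20 tested, all lower in knockouts, against 7.95% of all genes. All 4 were chemokines: Ccl2, Cxcl1, Cxcl2 and Cxcl5 (Cxcl2 and Cxcl5 are named after their values were seen). Cxcl2 had 15, 15 and 19 counts in control livers 42, 83 and 90, and 10, 2 and 10 in knockout livers 49, 82 and 88. It was tested only because the controls passed the low-count filter, so its place in the count of 4 already rests on the control level. Ccl2, which draws monocytes, had 2.53, 8.79 and 5.73 CPM in control livers 42, 83 and 90, and 1.48, 0.899 and 1.51 CPM in knockout livers 49, 82 and 88. Its log2 fold change was -2.12 (SE 0.49), with an adjusted p of 0.267 in edgeR and 0.00848 in DESeq2. It was the single response gene that DESeq2 called, where 0.936% of all genes were called lower. In edgeR 4 response genes were lower at an unadjusted p under 0.05, against 5.95% of all genes. Cxcl1, a neutrophil chemokine, was at -1.79 (SE 0.66, adjusted p = 0.384, edgeR) but at -0.45 without control liver 90, which held 150.8 CPM. The serum amyloid genes Saa1 (1.91) and Saa2 (2.18) had the most positive fold changes of the list, chosen after their values were seen, and knockout liver 82 carried them. Saa1 was at 2136 CPM in liver 82 against 123 and 583 in livers 49 and 88, and its fold change was 0.49 without liver 82 and 3.04 without control liver 90. Saa2 was at 0.38 and 3.56 in these fits, and groups overlapped in both genes.

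Genes that mark interleukin 33 and 18 responders were mostly too low to test. Of 15 interleukin 33 responder genes 3 were tested, and Il13, Fcer1a, Mcpt4 and Ms4a2 had no count in any liver. Their median of -0.10 was -1.17 without control liver 42, -0.15 without control liver 83, -2.18 without knockout liver 49, -0.78 without knockout liver 82 and -1.003 without knockout liver 88. Kit was at 0.48 (SE 0.19) and the growth factor gene Areg at -1.18 (SE 0.63), with an adjusted p of 0.42 and 0.514 in edgeR. Areg was at -2.18 without knockout liver 49 and -0.78 without knockout liver 82. Of 9 interleukin 18 responder genes 2 were tested, the interferon-induced chemokines Cxcl9 (-1.96) and Cxcl10 (-1.38). Control liver 90 held 71.7 CPM of Cxcl9 against 5.07 and 7.27 in livers 42 and 83, and the fold change was 0.16 without it. Cxcl10 was at -0.59 without that liver and -2.39 without knockout liver 49.

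**Figure D5:**
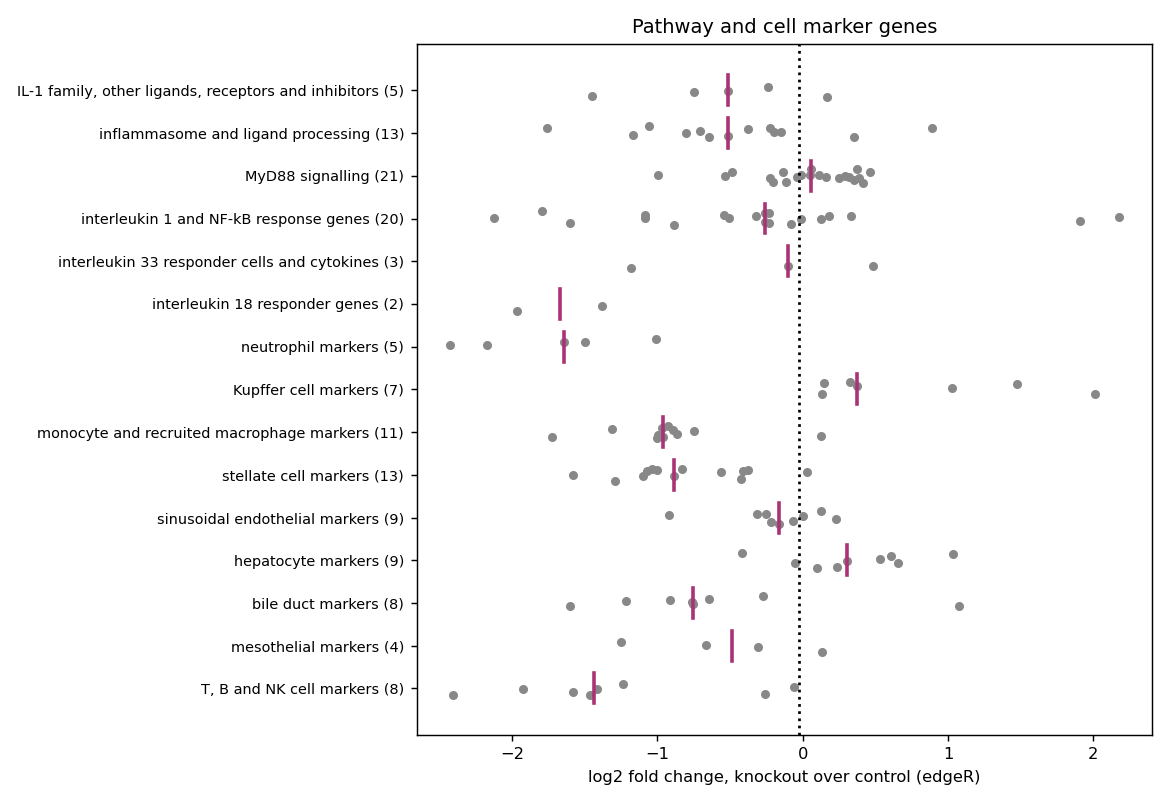
Log2 fold change of each tested gene (grey points) in the pathway and cell marker lists, with list medians in purple, a dotted line at the median of all genes tested (-0.02) and the number tested in parentheses. Neutrophil (-1.64), lymphocyte (-1.44), monocyte (-0.96) and stellate (-0.88) medians lie to the left, and Kupffer (0.37) and hepatocyte (0.30) medians to the right.

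Likeness of pattern was measured as the root mean square difference of centred log2 CPM over the 6 livers, among 12484 other genes with at least 1 CPM on average. Nearest to Il1rn were Fabp5, a fatty acid-binding protein gene (0.0833), the membrane channel gene Panx1 (0.158) and Basp1 (0.179). Nearest to Il1r1 were Dhdh (0.0461), Bcat2, of branched-chain amino acid breakdown (0.0585), and Cyp2d22 (0.0605). Il1rap also had metabolic enzyme genes nearest to it, Cyp4f14 (0.0908), Acad8 (0.0937) and Prodh2 (0.0967). Nearest to Il1b were Fermt3 (0.0553) and the integrin gene Itga4 (0.064), both of blood cells, and the lysosomal protease gene Lgmn (0.0801). Il1r2 had no close match, its nearest being Wnt7b (0.299), Creb5 (0.305) and Fam163a (0.318). For Il1a the nearest genes were Olfm1, Ost4 and Rps16, for Il18 Arl4d, Hsd17b10 and Gpr160, and for Il33 Vav3, Stx11 and Slc25a48, at 0.0512 to 0.198. With 6 livers and so many genes, close matches are easily found.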

How the data were processed

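The authors deposited a table of raw counts per gene symbol for the 6 livers. Per the labels' protocols, RNA was extracted with TRIzol and libraries were built with the NEBNext Ultra RNA kit. Trimmomatic, FastQC, STAR, HTSeq and the build mm10 are named in the submitters' processing notes. Neither annotation nor strand setting is given in the sources used here, and antisense overlap cannot be resolved. Columns were matched to mice by number.

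Genes were kept by filterByExpr (13153 of 21983), scaled by TMM and tested with the legacy quasi-likelihood fit of edgeR 4.0.16 (R 4.3.3), genotype being the only term, with Benjamini-Hochberg adjustment over all genes tested. Standard errors come from the fold change and F, and intervals from 8.75 degrees of freedom. DESeq2 1.42.0 and limma-voom (limma 3.58.1) were alternatives. Counting intervals cover counting error only.

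The members and lists were chosen with earlier results of these data known. Named genes are all members, the 2 with the smallest p of each list, and the 3 most alike in pattern per tested member; exceptions are stated, and 1 gene under this rule is not reported here. Positions are from GENCODE M21, start regions from RefSeq for all 9 members.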

Additional observations from a re-analysis of the deposited data

How the results depend on the processing

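No paired analysis was possible because mouse numbers are not shared between genotypes. The number of genes called was 0 with RLE size factors, total counts, at least 1 CPM in 3 livers, limma-voom and the newer edgeR fit. It was 4 without a low-count filter, 238 with DESeq2, 6 with mouse number as a term (numbers 42 and 49 against the other 4, which the labels do not call a batch), 3 at an adjusted p of 0.10 and 0 to 13 with 1 liver left out (13 without knockout liver 49). With library weights in limma-voom, chosen as was the newer edgeR fit after seeing the data, it was 560. Members called were 2 with DESeq2 and 1 (Il1r1) with library weights. Pathway genes called were 2 with each, 1 higher and 1 lower. The shares of all genes called were 1.81% with DESeq2, and 2.30% higher and 1.96% lower with library weights. With 1 liver left out, 0 members and 0 pathway genes were called. Prmt1 was at -0.74 (adjusted p = 0.0383) with library weights, and between -0.81 and -0.54 with 1 liver left out. Of 119 member fold changes under alternatives, 1 changed sign, Il18 without knockout liver 88 (-0.0052, the lowest of a range that reached 0.71 without control liver 90). The differences in log2 ratio ranged from -1.13 to -0.79 for Il1rn to Il1b and from -3.73 to -2.37 for Il1r2 to Il1r1 with 1 liver left out. Il1r2 was not tested at 1 CPM in 3 livers. Total counts as the only scaling moved the median of all genes from -0.02 to -0.17, and Il1r1 to 0.59 and Il1rn to -1.48. The cause of these changes was not tested. Depth limits Il1rl1 and Il1r2 most.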
